A study of Mus musculus with 10 samples.

Results

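The 35 protein-coding genes described here rose with doxycycline (DOX) in all 3 clones of MLL-AF9-i139 cells, and rose nearly as much in clone 3 as in clones 1 and 2. They were selected on that rise itself. Counts were scaled to the library total (counts per 1000000, CPM), and L was defined for each clone as the log2 ratio of the DOX library over the noDOX library after adding 0.2 CPM to both. A gene was taken when its mean over the 6 MLL-AF9-i139 libraries was at least 1 CPM, L was at least 0.9 in clones 1 and 2, and L in clone 3 was at least 0.7 times the mean L of those clones. Of 52550 genes in the table, 10676 were protein-coding with a mean of at least 1 CPM, 498 of them rose in clones 1 and 2, and 37 also met the limit in clone 3. Of these 37, Ssbp2 and Serpinb9g were left out by name, which gave the 35 genes. The i139 values below are therefore a description of how the genes were chosen and carry no test.

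The cells came from bone marrow of wild-type C57BL/6 mice aged 8 to 20 weeks, enriched for hematopoietic stem and progenitor cells (HSPCs). All 4 groups carried the MLL-AF9 fusion from a retrovirus and grew in medium with stem cell factor and the cytokines GM-CSF, IL-6 and IL-3. MLL-AF9-i139 cells held the tetR-KRAB repressor and a lentiviral vector that expresses miR-139 under DOX, and each of the 3 clones grew from 1 picked colony, with 1 library without and 1 library with DOX. Clones 1 and 2 received 5 µg/mL DOX for 48 h, clone 3 received DOX for 72 h, and the labels give no culture time for their noDOX libraries, so clone and time cannot be told apart. MLL-AF9-ieGFP cells held an inducible eGFP vector in place of the miR-139 vector (the protocol does not say separately whether they received tetR-KRAB), and were 1 clone sampled at 48 h and at 72 h, each time untreated and with DOX, so n = 2 per ieGFP group counts time points and not clones. The labels give 5 µg/mL for clones 1 and 2, a figure legend gives the same dose for the i139 clones, and no concentration was found for the ieGFP libraries of this experiment.

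MLL-AF9 is a fusion of the histone methyltransferase MLL with AF9, and it holds myeloid progenitors in a self-renewing state. Neutrophils form their granules in order as they mature: primary (azurophilic) granules with myeloperoxidase and serine proteases at the promyelocyte stage, then secondary and tertiary granules with antimicrobial proteins. Expression of these proteins is a common readout of how far a granulocytic cell has come, and transcription factors of the PU.1, C/EBP, RUNX and MYB families are known to act on many of their promoters. miR-139 is a microRNA whose hairpin lies within the gene Pde2a and gives a 5p and a 3p strand.

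The agent induced in these clones is shown because its seed (bases 2 to 8, in capitals) largely decides which transcripts pair with it. The sequences are from RefSeq, both on the plus strand of chromosome 7 in GRCm38.
miR-139-5p, chr7:101475382-101475403: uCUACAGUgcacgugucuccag
miR-139-3p, chr7:101475418-101475439: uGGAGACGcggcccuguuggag

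The seeds of the strands differ. In the longest annotated 3′ UTR of each gene, a match to the 5p seed (ACTGTAG) was found in 1 of the 35 genes (2.86%), against 1480 of 10617 protein-coding genes with a mean of at least 1 CPM and a UTR (13.9%). A match to the 3p seed (CGTCTCC) was found in 1 of the 35 (2.86%), against 473 of the 10617 (4.46%). The median UTR was 1141 bases long in the 35 genes and 1350 bases in all. The match for 5p lay at base 279 of the UTR of Csmd1 and the match for 3p at base 7 of the UTR of Mpo, both shown with up to 10 bases on each side and the seed match in capitals.
Csmd1: ggcaaggaagACTGTAGtcttacagac
Mpo: agatggCGTCTCCatgccctttg

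A match of letters is a description and shows no binding, and both genes rose. The libraries do not show the induction itself: the record of the Mir139 hairpin, chr7:101475376-101475443, held 0 counts in all 10 libraries, where 3 counts would be 0.0637 to 0.0854 CPM. Mature miRNAs were not measured in this RNA sequencing. From separate miRNA qPCR, the study reported that DOX raised both strands in MLL-AF9-i139 clones.

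RefSeq promoter windows, from 250 bases before to 50 bases after the annotated start in GRCm38.p6, were matched by symbol for 29 of the 35 genes. No window was matched for Slco3a1, Csmd1, Bicdl1, Wfdc21, Azin2 and Syt12. The windows of 3 granule genes and of Gstm5 are printed because these genes belong to the granule and detoxification groups described below. Capitals mark letters that match a searched motif on either strand.
Mpo, chr11:87793534-87793833, plus strand: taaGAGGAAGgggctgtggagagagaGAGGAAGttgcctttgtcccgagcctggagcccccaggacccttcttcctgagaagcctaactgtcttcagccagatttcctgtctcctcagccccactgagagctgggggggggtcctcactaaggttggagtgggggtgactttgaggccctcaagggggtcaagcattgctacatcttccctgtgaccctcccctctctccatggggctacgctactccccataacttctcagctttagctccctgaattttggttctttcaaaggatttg
Ngp, chr9:110419558-110419857, plus strand: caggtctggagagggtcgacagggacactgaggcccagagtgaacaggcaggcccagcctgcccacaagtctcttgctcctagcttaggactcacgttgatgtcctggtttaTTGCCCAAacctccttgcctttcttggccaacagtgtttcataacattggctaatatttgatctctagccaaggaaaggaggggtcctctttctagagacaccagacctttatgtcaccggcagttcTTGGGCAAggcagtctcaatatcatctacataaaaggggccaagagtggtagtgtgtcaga
Pglyrp1, chr7:18884440-18884739, plus strand: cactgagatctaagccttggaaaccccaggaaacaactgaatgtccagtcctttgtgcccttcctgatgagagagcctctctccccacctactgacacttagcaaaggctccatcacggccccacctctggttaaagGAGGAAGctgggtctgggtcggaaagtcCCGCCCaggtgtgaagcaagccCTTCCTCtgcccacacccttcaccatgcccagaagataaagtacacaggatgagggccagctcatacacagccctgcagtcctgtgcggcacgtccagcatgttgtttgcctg
Gstm5, chr3:107895604-107895903, plus strand: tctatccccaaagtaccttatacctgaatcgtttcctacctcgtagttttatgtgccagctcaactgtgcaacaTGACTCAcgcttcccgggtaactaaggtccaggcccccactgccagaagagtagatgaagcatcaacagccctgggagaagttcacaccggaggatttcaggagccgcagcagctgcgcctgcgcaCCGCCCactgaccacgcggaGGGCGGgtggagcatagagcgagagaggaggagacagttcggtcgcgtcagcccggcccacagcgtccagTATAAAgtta

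The Mpo window held the PU.1-type letters GAGGAAG at 2 places, and the Pglyrp1 window held them at 2 places, once on each strand, beside a GC box (GGGCGG). In the Ngp window the C/EBP-type letters TTGCNNAA occurred at 2 places, once on each strand. The Gstm5 window held the AP-1-type letters TGANTCA, a GC box at 2 places and TATAAA, the last of them 40 bases after the annotated start. Over the 29 genes, GAGGAAG was found in 7 (24.1%; 15.4% of 27025 genes with a window), TTGCNNAA in 2 (6.90%; 12.2% of all), and TGANTCA in 7 (24.1%; 8.97% of all). The RUNX-type letters TGTGGT were found in 5 genes (17.2%; 18.9% of all) and the MYB-type letters AACNGTT in 4 (13.8%; 5.01% of all). GGGCGG was found in 17 (58.6%; 38.2% of all), TATAAA in 1 (3.45%; 15.7% of all) and the E-box CACGTG in 1 (3.45%; 8.09% of all). Both strands were searched, and a base could belong to more than 1 motif. Unlike the genes compared for the seeds, the 27025 were not limited to a mean of at least 1 CPM, so the shares are not matched for expression. These shares are descriptions of short letter strings and no sites.

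Libraries held 35133308 to 47089725 counts, and the 35 genes had at least 10 counts in every library, except Nrp1 and Map7d2. Libraries of a group differed by more than sampling noise (chi-square over its degrees of freedom from 13.5 to 112). The median L of all genes with at least 10 counts was -0.02, 0.01 and 0.02 in clones 1, 2 and 3, after a scaling to library totals that would remove a shift shared by all genes. The cells expressed the promyelocyte markers strongly (a sum of 3170 to 6957 CPM over 7 genes in the 10 libraries), the neutrophil markers at 166 to 441 CPM over 10 genes and the monocyte or macrophage markers at 302 to 440 CPM over 10 genes. Stem cell markers summed to 143 to 176 CPM. Other lineages were low: T or NK cell markers summed to 0.289 to 0.780 CPM, eosinophil markers to 1.75 to 4.57, erythroid or megakaryocyte markers to 3.37 to 4.87, B cell markers to 2.80 to 25.7, mast cell or basophil markers to 11.2 to 19.3 and stromal markers to 17.2 to 39.9 CPM. In these bulk libraries more cells of a type and more RNA per cell cannot be told apart. From noDOX to DOX, the neutrophil sum went from 256 to 441 CPM in clone 1, from 191 to 411 in clone 2 and from 166 to 267 in clone 3, and the promyelocyte sum from 3170 to 4321, from 3788 to 4444 and from 4590 to 6957. Without Mpo the promyelocyte sum went from 2741 to 2965 CPM, from 3182 to 3209 and from 4013 to 5268. The median L of the promyelocyte markers was -0.24, -0.08 and 0.24. That of the 8 neutrophil markers with a mean of at least 1 CPM was 0.32, 0.80 and 0.73. Of the neutrophil sum, Ngp alone went from 81.9 to 164 CPM, from 55.4 to 184 and from 42.2 to 104. The monocyte or macrophage sum went from 374 to 302 CPM, from 440 to 318 and from 423 to 439.9. The median L of the 7 of these markers with a mean of at least 1 CPM was 0.76, 0.94 and 0.06. The sum thus fell in clones 1 and 2 while the median L was above 0 in each clone. In ieGFP, from noDOX to DOX, the promyelocyte sum went from 3216 to 3594 CPM at 48 h and from 3916 to 5000 at 72 h. Without Mpo it went from 2695 to 2889 and from 3286 to 4103. The neutrophil sum there went from 323 to 314 and from 397 to 419, and the monocyte or macrophage sum from 365 to 375 and from 380 to 422. Ngp and Mpo are themselves in those sums, and the part of a shift in cell stages in the values below was not tested.

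Most rises of clones 1 and 2 were smaller in clone 3. Over the 498 rises, the ratio of L in clone 3 to the mean L of clones 1 and 2 had a median of 0.334, with 0.0341 at the 10th percentile and 0.648 at the 90th, and 45 genes had an L under 0 in clone 3. Of the 498 rises, 7.43% met the limit. The 35 genes had a median L of 1.21, 1.21 and 1.09 in clones 1, 2 and 3, whereas the other 463 rises had 1.34, 1.37 and 0.43. In clones 1 and 2 the median rise of the 35 was the smaller, which the rule favours because its limit in clone 3 grows with that rise. The other 463 also include Ssbp2 and Serpinb9g. The median level of the 35 was 12.6 CPM against 20.2 CPM for the other rises. L in clone 3 lay below both other clones for 21 of the 35, between them for 10 and above both for 4. The ratio was at least 1 for 8 genes.

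**Figure D1:**
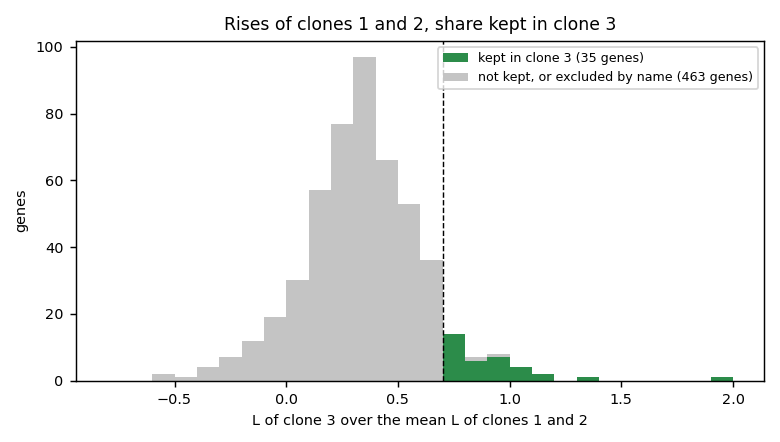
Histogram of the 498 protein-coding genes that rose in clones 1 and 2, by the ratio of L in clone 3 to the mean L of clones 1 and 2 (bins of 0.1). The 35 genes (green) lie right of the dashed limit of 0.7, which was the choice that made them, while the median of all 498 is 0.334.

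The limit cut through a continuous range. Just inside it were Tapbp (ratio 0.7002), Kctd21 (0.703) and Azin2 (0.705), and just outside were Ak1 (0.696), Dock9 (0.697) and Fam214a (0.697). With DOX, all 3 libraries lay above all 3 noDOX libraries for 30 of the 35 genes (85.7%), against 12.5% of 19223 genes with at least 10 counts, a count that the selection fixes in large part. Smarca2, Gm21188, Zbtb42, Kctd21 and Arfgef3 overlapped, and each of them had its lowest values in clone 3. The rule's contrast gave adjusted p-values under 0.05 (edgeR quasi-likelihood test) for 2 of the 35, Foxn3 and Pglyrp1, where 0.0572% of all genes tested were called higher and 0.0052% lower. With the clone as a block it gave 35 of 35, where 7.05% were called higher and 5.33% lower, and nothing is read from either count because the same contrast chose the genes. For the gene lists below, calls in this contrast are therefore counted over genes outside the 35, as descriptions to be read beside these shares.

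**Figure D2:**
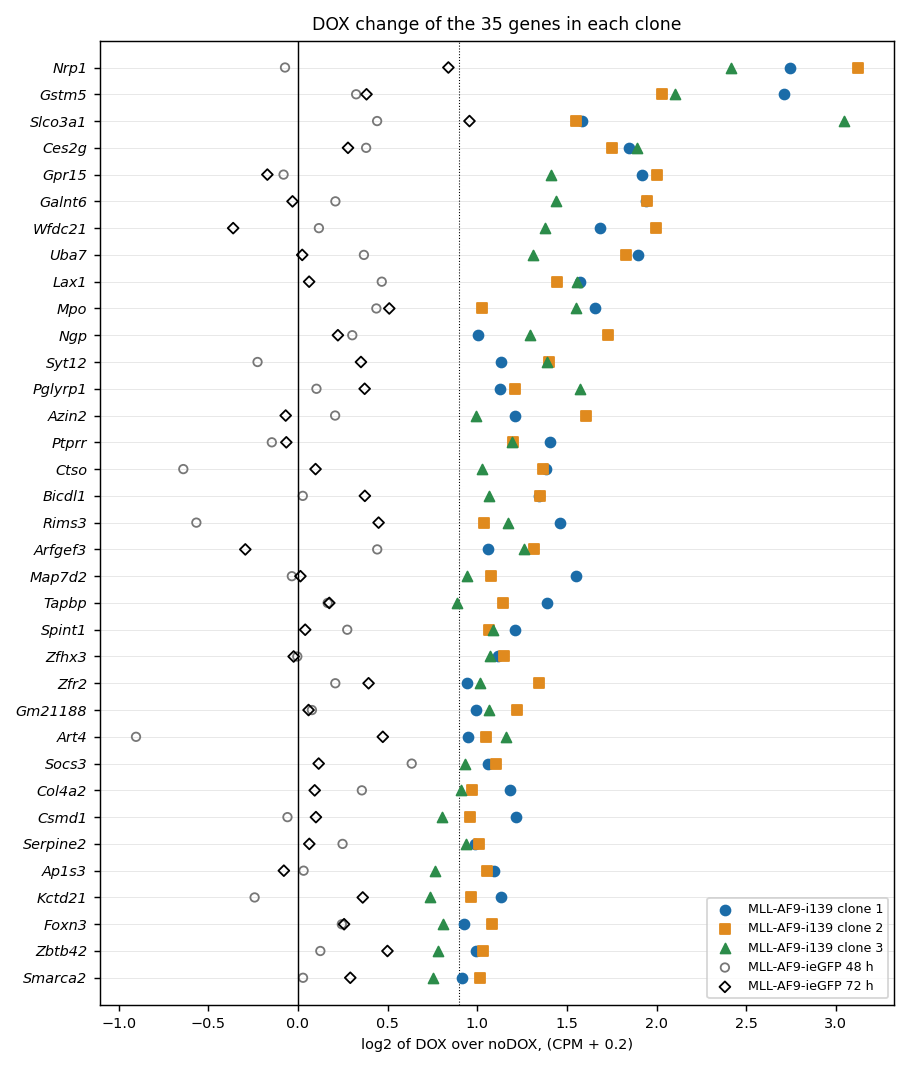
L (log2 of DOX over noDOX after adding 0.2 CPM) of the 35 genes, ordered by the mean over the MLL-AF9-i139 clones, with filled symbols for those clones and open symbols for the MLL-AF9-ieGFP pairs. The dotted line is the selection limit of 0.9 for clones 1 and 2, and the i139 symbols lie between 0.74 and 3.13.

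Among the 35 were 4 genes of the granule lists. Myeloperoxidase (Mpo, chr11:87793581-87804413), which makes hypochlorous acid in primary granules, had 429, 607 and 576 CPM without DOX in clones 1, 2 and 3. With DOX it had 1356, 1235 and 1688 CPM, a mean of 1426 ± 235 (SD, n = 3) against 537 ± 94.98. In the 48 h ieGFP pair it had 521 CPM without and 705 with DOX, and in the 72 h pair 629.9 and 897. Clone 3 was thus the highest of the DOX libraries, and the lowest DOX value in i139 exceeded every ieGFP value. Mpo also had the highest level per length of the 35, at 287 CPM per kb of exon. The annotated gene Gm11505 overlaps 49.5% of its body, and how reads in such overlaps were counted is not given in the sources used here.

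Neutrophilic granule protein (Ngp, chr9:110419747-110423012), a cathelin-related protein of secondary granules, had 81.9, 55.4 and 42.2 CPM without DOX and 164, 184 and 104 CPM with DOX in clones 1, 2 and 3. The ieGFP values were 64.2 and 79.2 CPM at 48 h and 102 and 119 CPM at 72 h, without and with DOX. The 72 h ieGFP libraries therefore reached the level of clone 3 with DOX. Peptidoglycan recognition protein 1 (Pglyrp1, chr7:18871331-18890459), which binds bacterial cell wall, had 44.2, 43.3 and 31.9 CPM without DOX and 97.0, 101 and 95.3 CPM with DOX. Its DOX libraries lay closest together of the granule genes, at 97.6 ± 2.70 CPM (SD, n = 3), although clone 3 started lowest. In ieGFP it had 53.1 and 57.1 CPM at 48 h and 51.4 and 66.6 CPM at 72 h. Wfdc21, a small whey acidic protein-type secreted protein, had 4.40, 2.63 and 2.90 CPM without DOX and 14.6, 11.1 and 7.86 with DOX. The ieGFP pairs had 3.77 and 4.11 CPM at 48 h and 3.67 and 2.81 CPM at 72 h, all below the lowest DOX value of i139.

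Other genes of the same granule lists did not meet the rule, although some rose in every clone. Of 10 primary granule genes, all with a mean of at least 1 CPM, Mpo was the one that rose in clones 1 and 2 by the rule. Elane, neutrophil elastase, had an L of -0.25, -0.37 and 0.44 in clones 1, 2 and 3, and Prtn3, proteinase 3, had -0.50, -0.84 and 0.07. Ctsg had 0.79, 0.63 and 0.54, Prss57 had 0.46, 0.27 and 0.43, and Cst7 had 0.87, 0.25 and 0.94. These rose in every clone, with an L under 0.9 in clones 1 and 2. Ms4a3, Ctsc and Serpinb1a fell in every clone. The list's median L was -0.26, -0.27 and 0.43. Of the 9 genes of this list outside the 35, 0 were called without a block, and with the clone as a block 3 were called higher (Prss57, Ctsg, Cst7) and 3 lower (Ms4a3, Ctsc, Serpinb1a).

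Of 14 secondary and tertiary granule genes with a mean of at least 1 CPM, 6 rose in clones 1 and 2, and Ngp, Pglyrp1 and Wfdc21 were kept in clone 3. The 3 that were not kept had ratios under 0.7. Lyz2, lysozyme, had an L of 2.46, 2.29 and 0.56, and Olfm4 had 1.46, 2.07 and 0.53. Lcn2, lipocalin 2, had 1.99, 2.03 and 0.99. The L of Lcn2 in clone 3 exceeded that of some of the 35, such as Kctd21 (0.74). The median L of the 14 genes was 0.76, 0.91 and 0.60, and some of them fell in a clone. Ltf had an L of -0.19, 0.89 and 0.83, and Camp had -0.14, 0.70 and 0.63. Arg1 had -0.27, 0.22 and -0.19, and Hp, Slpi and Anxa1 fell in clone 3 (-0.17, -0.57 and -0.12). With the clone as a block, 4 of 15 tested genes of this list outside the 35 were called higher (Olfm4, Lcn2, Cd177, Lyz2) and 0 lower, and without it 0 were called. Of 10 neutrophil surface receptors, 5 rose in clones 1 and 2 (Csf3r, Itgb2, Fcgr3, Clec5a, Cd33) and 0 were kept. Cd33, for instance, had an L of 2.68, 3.02 and 0.77. With the block 6 of 11 receptors were called higher and 1 lower.

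Of 8 granulocytic transcription factors, Cebpd rose in clones 1 and 2, with an L of 1.13, 1.38 and -0.01, and 0 were kept. The block fit called Spi1 and Cebpe higher. Of 9 MLL-AF9 targets 0 rose by the rule, and the block fit called Hoxa10, Myc and Hoxa9 lower. Neither list had a gene called without the block.

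**Figure D3:**
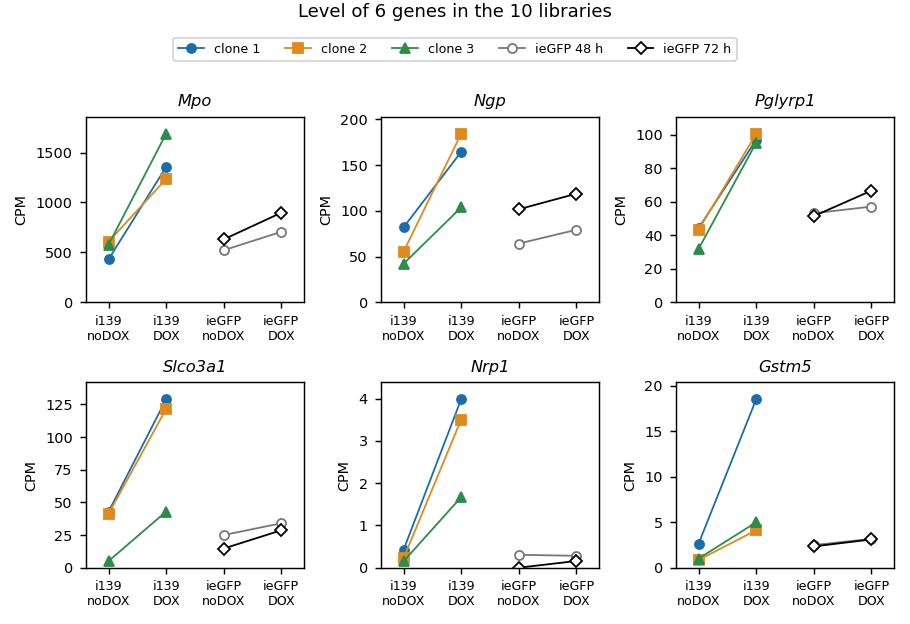
Level in CPM (linear axes from 0) of Mpo, Ngp, Pglyrp1, Slco3a1, Nrp1 and Gstm5 in the 10 libraries, with a line joining the noDOX and DOX library of each MLL-AF9-i139 clone and of each MLL-AF9-ieGFP time point. For Slco3a1, clone 3 starts at 5.04 CPM and ends at 43.0 CPM, near the noDOX level of clones 1 and 2.

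Surface, transport and matrix genes included the largest rises. Slco3a1 (chr7:74275419-74554780), an organic anion transporter of the plasma membrane, had 42.8, 41.3 and 5.04 CPM without DOX and 129, 122 and 43.0 CPM with DOX in clones 1, 2 and 3. Its L of 3.04 was the highest of the 35 in clone 3, yet its DOX level there was close to the noDOX level of the other clones. In ieGFP it had 24.99 and 34.0 CPM at 48 h and 14.7 and 28.6 CPM at 72 h. Neuropilin 1 (Nrp1, chr8:128358604-128503363), a co-receptor for semaphorins and VEGF, had 0.425, 0.225 and 0.151 CPM without DOX and 3.99, 3.51 and 1.67 CPM with DOX. In ieGFP it had 0.305 and 0.281 CPM at 48 h and 0 and 0.158 CPM at 72 h, where 0 counts allow up to 0.0854 CPM. Nrp1 was thus at 0.425 CPM or less in every library but those of DOX-treated i139 cells, where its L was 2.75, 3.13 and 2.41 in clones 1, 2 and 3. Its L was the highest of the 35 in clones 1 and 2 and below that of Slco3a1 in clone 3, and it rests on 20, 10 and 6 counts without DOX.

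Gpr15, a G protein-coupled chemoattractant receptor of leukocytes, had 1.36, 0.922 and 0.504 CPM without DOX and 5.70, 4.29 and 1.67 CPM with DOX. Its ieGFP values were 1.09 and 1.02 CPM at 48 h and 0.854 and 0.736 CPM at 72 h. Csmd1, a large membrane protein with complement-regulating domains, had 21.0025, 15.9 and 18.1 CPM without DOX and 49.1, 31.2 and 31.8 CPM with DOX. In ieGFP it had 15.3 and 14.7 CPM at 48 h and 8.25 and 8.86 CPM at 72 h, so the 72 h pair was the lower with and without DOX. Col4a2, a chain of basement membrane collagen, had 14.8, 12.1 and 8.29 CPM without DOX and 34.0, 23.9 and 15.7 CPM with DOX, against 9.44 and 12.1 CPM at 48 h and 13.1 and 14.0 CPM at 72 h in ieGFP.

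Art4, a membrane-anchored relative of ADP-ribosyltransferases, had 1.27, 1.35 and 1.46 CPM without DOX and 2.64, 3.00 and 3.52 CPM with DOX, and in ieGFP 1.70 and 0.816 CPM at 48 h and 0.512 and 0.789 CPM at 72 h. Lax1, a membrane adaptor that limits lymphocyte receptor signalling, had 3.14, 1.91 and 1.92 CPM without DOX and 9.73, 5.55 and 6.01 CPM with DOX. Its ieGFP values were 1.68 and 2.40 CPM at 48 h and 2.99 and 3.13 CPM at 72 h. The groups of both genes did not overlap in i139. Of 6 lymphocyte signalling adaptors with a mean of at least 1 CPM, Lax1 was the 1 that rose in clones 1 and 2, and the block fit called 0 of the other 7 tested.

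Enzymes formed another group. Glutathione S-transferase mu 5 (Gstm5, chr3:107895821-107898686), which conjugates glutathione to reactive compounds, had 2.65, 0.855 and 1.01 CPM without DOX and 18.5, 4.11 and 4.99 CPM with DOX. Clone 1 therefore set most of its mean of 9.20 ± 8.07 CPM (SD, n = 3), and its folds were 6.97, 4.81 and 4.95. In ieGFP it had 2.49 and 3.16 CPM at 48 h and 2.33 and 3.10 CPM at 72 h. The carboxylesterase Ces2g, which hydrolyses esters, had 7.20, 7.11 and 10.5 CPM without DOX and 26.4, 24.4 and 39.3 CPM with DOX, and in ieGFP 8.26 and 10.8 CPM at 48 h and 8.03 and 9.78 CPM at 72 h. Clone 3 was the highest for Ces2g in both states. Both genes belong to families of near copies, so reads may be split among relatives and their values are uncertain.

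Of 12 glutathione transferases and carboxylesterases with a mean of at least 1 CPM, 5 rose in clones 1 and 2. Gstm5 and Ces2g were kept in clone 3, while Gstm1 had an L of 1.50, 1.43 and 0.39, Gstm2 had 1.222, 1.19 and 0.59, and Mgst1 had 1.49, 1.84 and 0.45. Of 12 tested outside the 35, the block fit called 4 higher (Gstm1, Gstm2, Mgst1, Mgst2) and 0 lower, and 0 were called without it.

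Galnt6, which starts mucin-type O-glycans, had 7.62, 7.78 and 4.28 CPM without DOX and 29.8, 30.6 and 11.97 CPM with DOX, against 5.78 and 6.71 CPM at 48 h and 7.69 and 7.52 CPM at 72 h in ieGFP. Uba7, the activating enzyme for the ubiquitin-like protein ISG15, had 6.50, 6.21 and 4.46 CPM without DOX and 24.7, 22.5 and 11.4 CPM with DOX. Its ieGFP values were 5.23 and 6.81 CPM at 48 h and 5.35 and 5.44 CPM at 72 h. For both enzymes clone 3 was the lowest clone in either state.

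Tapasin (Tapbp), which loads peptides onto MHC class I, had 27.4, 30.9 and 19.4 CPM without DOX and 72.1, 68.4 and 36.0 CPM with DOX, and 29.6 and 33.2 CPM at 48 h and 26.7 and 30.2 CPM at 72 h in ieGFP. Other genes cover 34.2% of its body. Azin2, an antizyme inhibitor that protects ornithine decarboxylase, and Ctso, a lysosomal cysteine protease, rose from means of 2.24 ± 0.922 and 2.53 ± 0.687 CPM to 5.51 ± 1.56 and 6.51 ± 2.41 CPM (SD, n = 3). Of 12 polyamine and carnosine enzymes with a mean of at least 1 CPM, Azin2 was the 1 that rose in clones 1 and 2. Of the other 13, the block fit called 2 higher (Oaz2, Carns1) and 3 lower (Srm, Odc1, Sms), and 0 were called without it.

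Inhibitors of proteases and of signalling were also present. Serpine2 (protease nexin 1), which blocks thrombin and related proteases, went from 9.63 ± 0.960 to 19.1 ± 1.61 CPM (SD, n = 3), with folds of 2.00, 2.03 and 1.93 in clones 1, 2 and 3. Spint1, a Kunitz-type inhibitor of the hepatocyte growth factor activator, went from 0.792 ± 0.140 to 1.97 ± 0.414 CPM. In ieGFP it had 1.50 and 1.86 CPM at 48 h and 1.71 and 1.76 CPM at 72 h, without and with DOX. The i139 DOX libraries, at 2.43, 1.87 and 1.62 CPM in clones 1, 2 and 3, thus did not all exceed the ieGFP libraries. Socs3, which damps cytokine signalling through JAK kinases, had 1.57, 1.12 and 2.29 CPM without DOX and 3.49, 2.65 and 4.55 CPM with DOX, and 1.11 and 1.84 CPM at 48 h and 2.53 and 2.76 CPM at 72 h in ieGFP. Clone 3 had the highest Socs3 in both states, and the 72 h ieGFP pair exceeded the 48 h pair.

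Ptprr, a tyrosine phosphatase that acts on ERK through a kinase interaction motif (KIM), had 10.9, 7.94 and 6.17 CPM without DOX and 29.1, 18.5 and 14.4 CPM with DOX. Of 9 KIM-type phosphatases and MAP kinases with a mean of at least 1 CPM, Ptprr and Mapk3 rose in clones 1 and 2, and Mapk3, with an L of 1.17, 1.17 and 0.47, was not kept. Of 9 tested beside Ptprr, the block fit called Mapk3 higher and Map2k6 and Mapk8 lower, and 0 were called without it.

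Nuclear factors were also among the 35. Foxn3 (chr12:99190078-99563582), a forkhead repressor, had 103, 85.0 and 95.6 CPM without DOX and 195, 180.1 and 168 CPM with DOX. Its clones were close in both states, and in ieGFP it had 72.7 and 86.1 CPM at 48 h and 81.0 and 96.8 CPM at 72 h. Smarca2, an ATPase of the SWI/SNF chromatin remodeller, had 24.0, 26.0 and 9.35 CPM without DOX and 45.5, 52.8 and 15.9 CPM with DOX, and in ieGFP 12.4 and 12.7 CPM at 48 h and 9.31 and 11.4 CPM at 72 h. The DOX value of clone 3 was thus below the noDOX values of the other clones. Zfr2, a zinc finger RNA-binding protein, had 15.2, 13.4 and 12.9 CPM without DOX and 29.5, 34.5 and 26.3 CPM with DOX, and in ieGFP 14.3 and 16.6 CPM at 48 h and 9.28 and 12.3 CPM at 72 h. The zinc finger genes Zbtb42 and Zfhx3 went from 2.40 ± 1.37 to 4.93 ± 2.98 CPM and from 0.830 ± 0.386 to 2.02 ± 0.838 CPM (SD, n = 3).

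Genes of vesicle traffic and the cytoskeleton completed the set. Ap1s3, a small subunit of the clathrin adaptor AP-1, had 55.9, 46.0 and 42.9 CPM without DOX and 119.7, 95.7 and 73.2 CPM with DOX, against 49.0 and 50.1 CPM at 48 h and 42.7 and 40.4 CPM at 72 h in ieGFP. Bicdl1, a dynein cargo adaptor, went from 7.58 ± 1.13 to 18.4 ± 3.59 CPM, and Map7d2, a microtubule-binding protein, from 3.24 ± 0.282 to 7.82 ± 2.10 CPM. Arfgef3, a member of the family of ARF exchange factors, went from 1.87 ± 1.19 to 4.45 ± 2.21 CPM. Rims3 and Syt12, both known from synaptic exocytosis, went from 1.13 ± 0.298 to 2.86 ± 0.378 CPM and from 1.19 ± 0.594 to 3.19 ± 1.36 CPM (SD, n = 3 throughout). Of 9 synaptic and exocytosis genes with a mean of at least 1 CPM, 3 rose in clones 1 and 2, of which Ntng2, with an L of 2.27, 2.03 and 1.30, was not kept. Of 13 tested outside the 35, the block fit called 5 higher (Sytl1, Syt3, Ntng2, Unc13d, Syt11) and 0 lower, and 0 were called without it.

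Kctd21, a BTB-domain adaptor of cullin ubiquitin ligases, had 2.51, 3.49 and 0.983 CPM without DOX and 5.74, 6.99 and 1.77 CPM with DOX, and in ieGFP 3.45 and 2.88 CPM at 48 h and 1.08 and 1.45 CPM at 72 h. Gm21188, a gene model of a multicopy cluster whose counts are uncertain, had 12.3, 7.98 and 4.81 CPM without DOX and 24.7, 18.9 and 10.3 CPM with DOX. In ieGFP it had 9.90 and 10.5 CPM at 48 h and 7.29 and 7.60 CPM at 72 h. Both were lowest in clone 3 in either state.

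The 35 genes lay on 18 chromosomes, with 5 on chromosome 8. The closest pair was Ap1s3 and Serpine2 on chromosome 1, 122224 bases apart with 2 protein-coding genes between them. Levels per length ranged from 0.0680 CPM per kb of exon for Zfhx3 to 287 for Mpo, with Ngp at 86.2, Pglyrp1 at 37.4, Ap1s3 at 25.1 and Wfdc21 at 16.7. The genes of the granule lists, which include Wfdc21, thus held 4 of the 5 highest places.

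A kept rise did not mean an equal level. Without DOX, 20 of the 35 were lower in clone 3 than in both other clones and 6 were higher, and the median ratio of clone 3 to the mean of clones 1 and 2 was 0.702, ranging from 0.120 for Slco3a1 to 1.70 for Socs3. Among protein-coding genes with a mean of at least 1 CPM, 39.4% were lower in clone 3 than in both others, with a median ratio of 0.979. With DOX the median ratio of the 35 was 0.613, and clone 3 was the lowest DOX clone for 23 genes and the highest for 6. Zbtb42 kept its place with 0.298 and 0.268 times the other clones, as did Ces2g with 1.46 and 1.55 times. The noDOX library of clone 3 enters both this ratio and the rule, so the ratio is a description and no test was made.

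**Figure D4:**
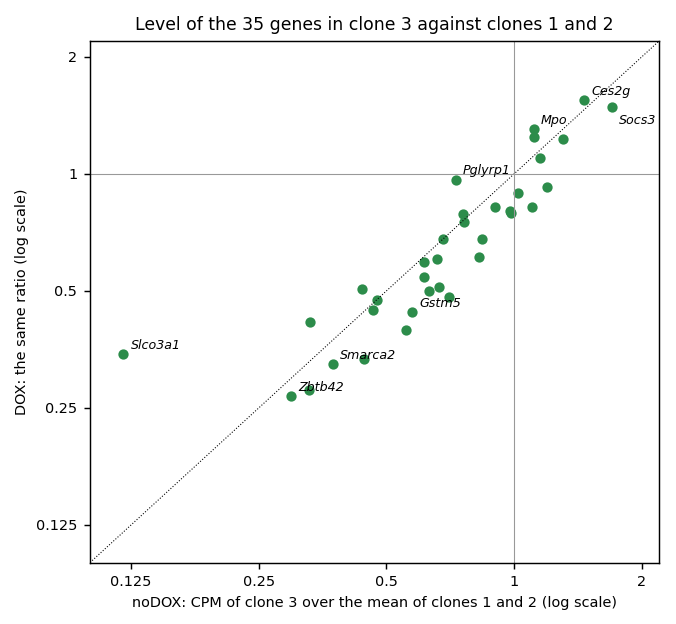
CPM of clone 3 divided by the mean CPM of clones 1 and 2, without DOX (horizontal) and with DOX (vertical), both on log axes, for the 35 genes. Most points lie below 1 on both axes and close to the dotted line of equal ratios, with medians of 0.702 and 0.613, and Slco3a1 lies apart at 0.120 and 0.343.

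The control clone had similar noDOX levels for most of these genes. The ratio of the mean ieGFP to the mean i139 level without DOX had a median of 0.974 over the 35. Foxn3, Csmd1, Serpine2 and Map7d2 were lower in both ieGFP noDOX libraries than in all 3 of i139, and Pglyrp1, Ptprr and Spint1 were higher. Map7d2 differed the most, at 0.230 to 0.289 CPM in the 4 ieGFP libraries against 2.92 to 3.45 CPM in the noDOX libraries of i139. With 1 ieGFP clone, a difference between clones and one between vectors cannot be told apart.

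DOX without the miR-139 vector was compared in the MLL-AF9-ieGFP cells, which the selection did not use. DOX induces eGFP there, and effects of DOX and of eGFP cannot be told apart. No gene was called by the edgeR quasi-likelihood test at an adjusted p under 0.05 (0.0% of 17757 tested, 277 with an unadjusted p under 0.05), and none of the 35 was called, while DESeq2 called 4 genes and 0 of the 35. Of the 35, 5 had an unadjusted p under 0.05, all higher, where 0.952% of all genes were higher at that level. They were Mpo (log2 fold change 0.48, SE 0.14, unadjusted p = 0.00914 in edgeR), Slco3a1 (0.66, SE 0.21), Foxn3 (0.26, SE 0.10), Ces2g (0.34, SE 0.14) and Pglyrp1 (0.25, SE 0.11). Their adjusted p was 1.00 in edgeR, and the 95% interval of Mpo ran from 0.16 to 0.81. Its L of 1.03 to 1.66 in the i139 clones was used in the selection, so a difference from this interval was not tested. Leaving out 1 of the 4 libraries moved the log2 fold change of Mpo between 0.27 (without 72 h DOX) and 0.66 (without 48 h DOX), and that of Slco3a1 between 0.34 (without 72 h noDOX) and 1.08 (without 48 h noDOX). Foxn3 ran from 0.14 to 0.36 and Pglyrp1 from 0.11 to 0.37, both lowest without 72 h DOX and highest without 48 h DOX, and Ces2g from 0.29 to 0.39.

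The median log2 fold change of the 35 was 0.16 with DOX in ieGFP, with 25 of 35 above 0, beside a median of 0.00 and 50.5% above 0 over all genes tested. In the single pairs, 19 of the 35 (54.3%) were higher with DOX at both 48 h and 72 h, 3 were lower at both and 13 differed in direction. The share higher in both pairs was 34.6% among the other 463 rises and 27.3% among protein-coding genes with a mean of at least 1 CPM. Of the latter, 27.5% were lower in both pairs. The median L of the 35 was 0.12 at 48 h and 0.12 at 72 h. These are descriptions, and the difference between the sets was not tested.

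With culture time as a block the same comparison called 123 genes, of which 80 were higher (0.451% of 17757), and 4 of the 35 were among these. Mpo rose by a log2 fold change of 0.48 (SE 0.05, adjusted p = 6.48e-16 in edgeR with the block), higher in 2 of 2 pairs. In the same edgeR fit Slco3a1 rose by 0.69 (SE 0.08, adjusted p = 1.65e-14), Ngp by 0.27 (SE 0.06, adjusted p = 0.00335) and Foxn3 by 0.26 (SE 0.06, adjusted p = 0.00794), all of them at both time points. The labels give the culture time of every ieGFP library. That fit leaves 1 residual degree of freedom per gene and takes its spread from all genes, so these p-values measure 1 clone at 2 times. Without time in the model, edgeR with no filter on low counts called Mpo and Slco3a1 as well. Without the block, the change of Ngp was -0.0493 when the 48 h noDOX library was left out, -0.0889 when the 72 h DOX library was left out, and 0.65 when the 72 h noDOX library was left out.

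**Figure D5:**
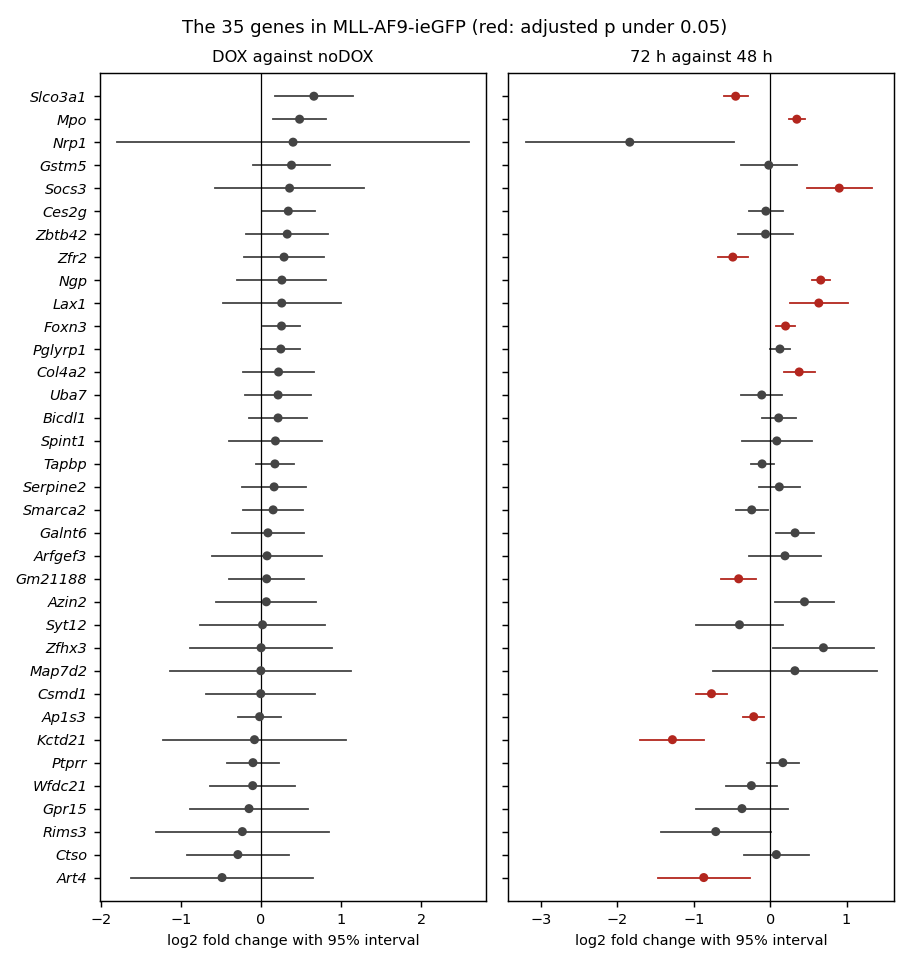
Log2 fold changes with 95% intervals (edgeR) of the 35 genes in MLL-AF9-ieGFP, for DOX against noDOX (left) and for 72 h against 48 h with DOX as a covariate (right), in the same order. None of the 35 is red (adjusted p under 0.05) on the left and 13 are on the right, and Nrp1 has the widest intervals.

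Time in culture was compared because clone 3 had DOX for longer. Between 72 h and 48 h in ieGFP, 13 of the 35 were called by edgeR with DOX as a covariate. Of these, 6 were higher at 72 h, where 6.19% of 17757 genes were called higher, and 7 were lower, where 7.96% were called lower. Their median log2 fold change over all 35 was -0.02, beside 0.00 over all genes. So the genes did not share a direction in time.

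Higher at 72 h were Ngp (log2 fold change 0.66, SE 0.06, adjusted p = 1.24e-24 in edgeR), Mpo (0.35, SE 0.05), Socs3 (0.90, SE 0.22), Lax1 (0.64, SE 0.20), Col4a2 (0.38, SE 0.10) and Foxn3 (0.20, SE 0.06). Lower were Csmd1 (-0.77, SE 0.11, adjusted p = 7.67e-11 in edgeR), Kctd21 (-1.28, SE 0.21), Art4 (-0.87, SE 0.31), Zfr2 (-0.49, SE 0.10), Slco3a1 (-0.45, SE 0.08), Gm21188 (-0.41, SE 0.12) and Ap1s3 (-0.22, SE 0.07). The changes of Mpo and Ngp in time thus had the direction of their rise with DOX in i139, while those of Slco3a1 and Csmd1 had the other. DESeq2 called 4 of the 35 (Ngp, Mpo, Csmd1, Kctd21), and the fit without DOX in the model called 6 (Ngp, Csmd1, Kctd21, Zfr2, Socs3, Gm21188). Slco3a1 thus lost its call in both, and Mpo in the fit without DOX. Each library is 1 culture, so the spread again rests on all genes.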

How the data were processed

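Total RNA of 10 mouse libraries was sequenced after ribosomal RNA removal (KAPA RNA HyperPrep with RiboErase). For the raw counts they deposited, the authors aligned reads with STAR against GRCm38, and featureCounts 1.6.0 assigned them to genes of an earlier GENCODE release. The strand setting of the counting is not given in the sources used here. The deposited tables hold the same values (0 differing), and 14 columns of other samples were not used. The 35 genes and all gene lists were chosen with earlier results of these data known, and the values in every library are given for the 10 genes with the highest mean CPM, the 10 with the highest mean L and those called in MLL-AF9-ieGFP. Also named, with fewer values, were the 3 genes on each side of the 0.7 limit and genes of the lists that were called.

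Biotypes, positions and exon lengths came from GENCODE M21 on the same build (147 of 52550 identifiers had no entry), and promoters and miRNAs from RefSeq. Counts were tested with the edgeR quasi-likelihood test (edgeR 4.0.16, TMM, at least 10 counts in total, Benjamini-Hochberg, adjusted p under 0.05), and with DESeq2 1.42.0 as an alternative. The scripts were tested on simulated data. Same-numbered clones deviated together from the group means (r = 0.488, 0.392 and 0.514 for clones 1, 2 and 3, against -0.413 to -0.0408 between clones) and come from the same clone, and ieGFP libraries of the same culture time had r = 0.335, so fits with these blocks are given beside those without. The other alternatives were size factors, filters, libraries left out and the limits of the rule. Floors are 3 counts and cover counting error only. The values of 1 gene of the receptor list are not reported here.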

Additional observations from a re-analysis of the deposited data

Results flagged for a closer look

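For 3 of the 35 genes every i139 clone was higher with DOX while both ieGFP pairs were lower, and the difference between i139 and ieGFP was not tested. The rule fixed the i139 part of this pattern. Among protein-coding genes with a mean of at least 1 CPM, 27.5% were lower in both ieGFP pairs. Ptprr had an L of 1.41, 1.20 and 1.19 in clones 1, 2 and 3, and -0.15 and -0.06 at 48 h and 72 h in ieGFP, a mean of -0.11. In CPM its 48 h ieGFP pair had 11.8 and 10.7, without and with DOX. Gpr15 had 1.92, 2.00 and 1.41 in the clones and -0.08 and -0.17 in ieGFP, a mean of -0.13. Zfhx3 had 1.11, 1.15 and 1.07 in the clones, and its ieGFP pairs were almost level, with a mean of -0.014, at 0.589 and 0.587 CPM at 48 h and 0.939 and 0.920 CPM at 72 h. The 95% edgeR interval of the ieGFP DOX change ran from -0.43 to 0.23 for Ptprr, from -0.89 to 0.59 for Gpr15 and from -0.89 to 0.89 for Zfhx3.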

How the results depend on the processing

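The set itself followed its limits: 21 of the 35 genes met the rule with an offset of 1 CPM, where the median L of all 35 was 1.11, 1.12 and 0.88 in clones 1, 2 and 3 against 1.21, 1.21 and 1.09, and 21 met it with a share of 0.8, while a share of 0.6 gave 70 genes. TMM-scaled CPM gave 29 genes, and the limits on mean CPM gave 36 and 31. For DOX in i139, 12 genes and 2 of the 35 were called, against 1556 and 31 with DESeq2, 562 and 24 with no filter, 2 and 0 with at least 10 counts in every library, 1234 and 25 with all 10 libraries in one fit, and 2381 and 35 with the clone as replicate block. Leaving out 1 clone gave 0 to 3982 genes and 0 to 33 of the 35, with 1 and 0 without clone 1, 0 and 0 without clone 2 (1050 genes at an unadjusted p under 0.05 in edgeR) and 3982 and 33 without clone 3. For DOX in ieGFP, 0 genes and 0 of the 35 were called, against 4 and 0 with DESeq2, 28 and 2 with no filter, and 123 and 4 with culture time as replicate block. Leaving out 1 library there gave 0 to 68 genes and 0 to 2 of the 35 (44 and 1 without the 48 h noDOX library, 68 and 2 without the 72 h noDOX library), a median of the 35 from 0.12 to 0.20, and a change of Ngp from -0.0889 without the 72 h DOX library and -0.0493 without the 48 h noDOX library to 0.65, against 0.26 with all 4. For 72 h against 48 h, 2512 genes and 13 of the 35 were called, against 553 and 4 with DESeq2 and 1320 and 6 with DOX left out. Leaving out a library there would leave no residual degree of freedom. The cause of these differences was not tested. Of 112 alternative values of genes named with a test, 85 kept direction and call, 16 lost the call, 9 gained it and 2, both of Ngp, turned direction. The control is 1 clone, clone 3 differs from the others in time of DOX, and the genes were chosen on the i139 contrast, so no test bears on their rise there.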
